A study of Mus musculus with 8 samples.

Results

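The prokineticin family of the mouse was examined in the retina: the ligands Prok1 and Prok2 and the receptors Prokr1 and Prokr2. These 4 genes were taken by symbol from a table of 26824 genes, and the family was chosen on the counts of Prok1, which were already known to be higher in KO. Of the 4 genes, 3 had a row of counts, and all 3 passed the filter on low counts. The level of Prok2 was not analysed here.

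Retinas of mice aged 1 month were sequenced in bulk, with both retinas of a mouse pooled in each library. The groups were 3 libraries labelled WT and 5 labelled KO for Kv8.2, and no treatment was given to either. Kv8.2 is the photoreceptor potassium channel subunit encoded by Kcnv2; it forms no channel alone and joins other Kv subunits. The series text says that 2 KO samples were dropped by the authors without naming them, so every library was kept here.

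Prokineticins are small secreted proteins held in shape by disulphide bonds. Prok1, also called endocrine gland-derived vascular endothelial growth factor, acts on endothelial cells of steroid-producing glands, and Prok2 is known for its roles in the circadian clock of the suprachiasmatic nucleus and in the growth of the olfactory bulb. Both ligands bind both receptors, which are G protein-coupled receptors that signal mainly through Gq, phospholipase C and the release of calcium from internal stores.

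Prok1 (ENSMUSG00000070368) lies on the minus strand of chromosome 3, from 107232797 to 107239707 in GRCm38, and its transcripts begin at different sites. The 250 bases before 2 of these start sites are printed because Prok1 is the member with the higher counts in KO and because its transcripts differ in what they share with a neighbour. The sequences are from RefSeq (GRCm38.p6), 5′ to 3′ on the strand of the gene, with motif matches in capitals. The first window, chr3:107239708-107239957, precedes the start of the shortest transcript. The second, chr3:107238653-107238902, precedes the start of a longer transcript and lies within the first intron of the shortest.
Prok1, first start site: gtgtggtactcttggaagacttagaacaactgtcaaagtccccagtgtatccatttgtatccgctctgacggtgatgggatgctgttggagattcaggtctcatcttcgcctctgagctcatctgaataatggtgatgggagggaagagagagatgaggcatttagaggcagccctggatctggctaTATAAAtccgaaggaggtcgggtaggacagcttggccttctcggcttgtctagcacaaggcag
Prok1, second start site: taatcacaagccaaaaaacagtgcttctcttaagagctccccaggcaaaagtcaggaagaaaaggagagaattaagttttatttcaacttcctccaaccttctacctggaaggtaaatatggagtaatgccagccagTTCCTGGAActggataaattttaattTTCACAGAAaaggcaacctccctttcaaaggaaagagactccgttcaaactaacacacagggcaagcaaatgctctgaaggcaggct

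Motifs were searched on both strands. They were the letters TATAAA of the core promoter box, TGANTCA of AP-1 elements, TTCNNNGAA of STAT elements, ACGTG of the hypoxia response element, the E-box CACGTG, which contains the former, and TAATCC of CRX elements. The window of the first start site held TATAAA from -63 to -58, where -1 is the base before the start site. The window of the second start site held TTCNNNGAA from -113 to -105 and again from -87 to -79. Among 32851 promoter windows of the same length, 12.4% held TATAAA, 7.02% held TTCNNNGAA and 0.317% held TTCNNNGAA at least 2 times. The other motifs occurred in 6.75% (TGANTCA), 16.6% (ACGTG), 6.02% (CACGTG) and 6.25% (TAATCC) of the windows. The window of Prok2 held TATAAA on the opposite strand from -46 to -41 and TGANTCA from -67 to -61. It also held CACGTG from -135 to -130, with ACGTG within it on each strand. The windows of Prokr1 and Prokr2 held none of the 6 motifs, which says only that these letters were not in those 250 bases.

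The libraries held 17759146 to 25188870 counts, and 3 counts, taken as the floor, equalled 0.130 to 0.165 CPM, the count of a gene for every 1e+06 counts after scaling. Kcnv2 was present in every library, at 519 to 551 CPM in WT. In the libraries labelled KO it was at 585 CPM in KO 2, 447 CPM in KO 3 and 398 to 409 CPM in KO 4 to KO 6. Its log2 fold change was -0.24 (SE 0.14; edgeR quasi-likelihood, Benjamini-Hochberg adjusted p = 0.275), and it passed the threshold without KO 2 (-0.35, adjusted p = 0.0298). Its level therefore does not check the labels, and the KO group is called by its label throughout. KO 4, KO 5 and KO 6 stood apart from the rest on the first principal component (scores 45.7 to 58.1 against -40.2 to -11.9), KO 2 and KO 3 on the second (-54.5 and -31.7 against 0.064 to 27.2). KO 4 to KO 6 had the lowest share of mitochondrial counts. That share separated the groups, as Prok1 did: WT had 7.09% to 7.92%, KO 2 had 6.52%, KO 3 had 5.23% and KO 4 to KO 6 had 3.03% to 3.70%. The 6 lens markers made up 3.93% of KO 3 and no more than 0.114% of any other library. Rod markers, which define the bulk of the retina, were high in every library, at 31217 to 46960 CPM in sum.

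Prok1, the ligand, separated the groups completely, with all 5 KO libraries above all 3 WT libraries. WT 1, WT 2 and WT 3 had 47, 52 and 40 counts of Prok1, which is 2.58, 2.45 and 1.78 CPM. KO 2 to KO 6 had 417, 268, 320, 366 and 331 counts, which is 18.1, 12.7, 15.8, 18.7 and 15.1 CPM. The lowest KO library, KO 3, was thus far above the highest WT library, WT 1. WT averaged 2.27 ± 0.429 CPM (SD, n = 3) and KO averaged 16.1 ± 2.41 CPM (SD, n = 5), a 7.10-fold difference, or 2.83 (SE 0.19) on the log2 scale. No test is given for Prok1, because its rise chose the family. For scale, 4.74% of 20167 tested genes were called higher in KO, and 10.8% had every KO library above every WT library. Ordered by log2 fold change from the largest rise down, Prok1 was number 69 of these genes. It was number 22 of the 14697 whose log2 CPM averaged 1 or more.

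**Figure D1:**
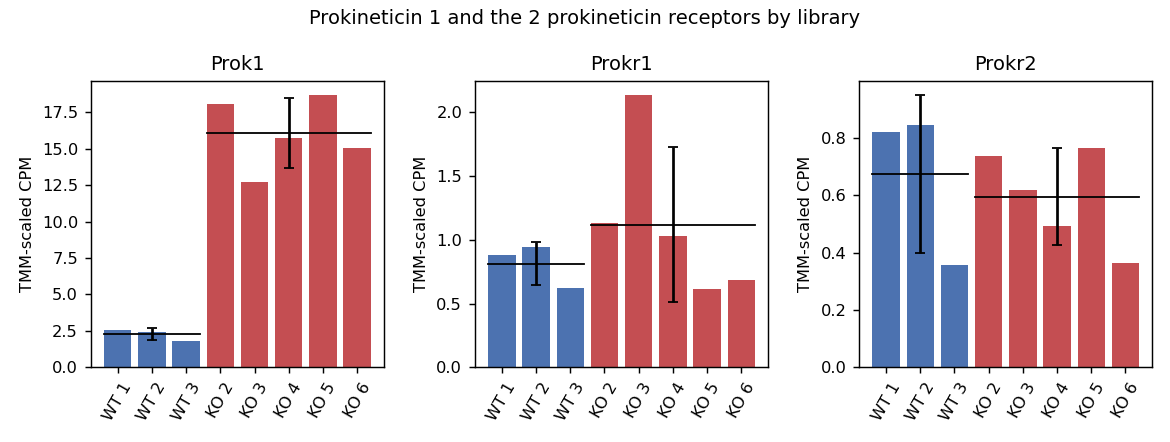
Level of Prok1, Prokr1 and Prokr2 in CPM, with 1 bar for each library (WT blue, KO red), a horizontal line at each group mean and an error bar of 1 SD around it. Prok1 separates the groups, with WT at 1.78 to 2.58 CPM and KO at 12.7 to 18.7 CPM, while the bars of both receptors overlap in height between the groups.

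Prok1 was similar in KO 4 to KO 6 and in KO 2 and KO 3. KO 2 and KO 3 averaged 15.4 CPM and KO 4 to KO 6 averaged 16.5 CPM, a ratio of 1.07. Against the same 3 WT libraries, the log2 fold change was 2.77 (SE 0.23) for KO 2 and KO 3 and 2.88 (SE 0.17) for KO 4 to KO 6. Leaving out any 1 library gave 2.68 (without WT 3) to 2.93 (without WT 1). The mitochondrial share was lower in all 5 KO libraries (3.03% to 6.52%) than in all 3 WT libraries (7.09% to 7.92%). Its part in the difference of Prok1 was not tested.

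The annotation gives 3 transcripts of Prok1, and an antisense neighbour overlaps the longer ones. The shortest has 813 bases in 3 exons, and the others have 3063 and 3050 bases. A630076J17Rik, on the opposite strand, overlaps the end of Prok1 over 1927 bases, of which 1146 are exonic in both genes. None of these exonic bases belongs to the shortest transcript. Of the 31-base words of the 3063-base transcript, 36.9% also occur in A630076J17Rik, against 37.1% for the 3050-base and 0% for the 813-base transcript. The sources used here give no counting strand and the counts are per gene, so how far reads of the neighbour entered the Prok1 count, and which Prok1 transcript was higher, could not be read from them. A630076J17Rik was not analysed here.

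**Figure D2:**
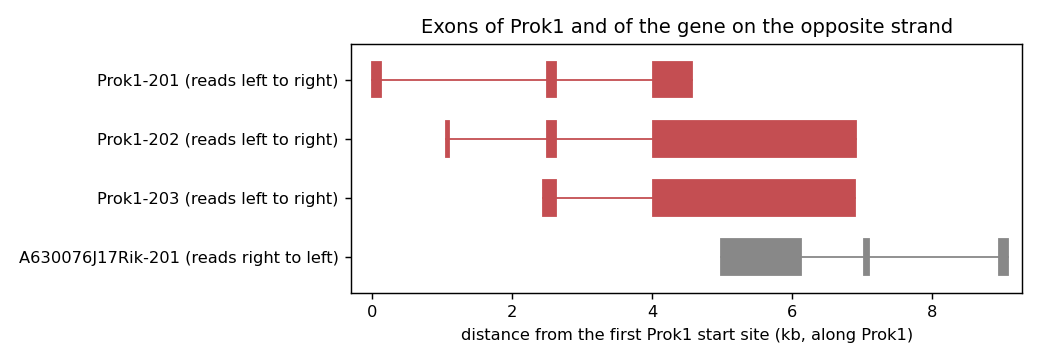
Exons (boxes) of the 3 Prok1 transcripts and of A630076J17Rik on the opposite strand, against distance in kb downstream of the first Prok1 start site. A single exon of A630076J17Rik overlaps the last exon of the longer transcripts, of 3063 and 3050 bases. None of its exons overlaps an exon of the 813-base transcript.

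Both receptors were detected in every library with few counts, and neither passed the test between the groups. Prokr1 (ENSMUSG00000049409; chromosome 6, 87578591 to 87590743, minus strand) had 16, 20 and 14 counts in WT and 26, 45, 21, 12 and 15 counts in KO 2 to KO 6. That is 0.877, 0.940 and 0.622 CPM in WT and 1.13, 2.14, 1.03, 0.613 and 0.683 CPM in KO. KO 2, KO 3 and KO 4 were above every WT library, KO 6 was within the WT range and KO 5 was below it. The means were 0.813 ± 0.169 CPM (SD, n = 3) and 1.12 ± 0.611 CPM (SD, n = 5). The log2 fold change of Prokr1 was 0.46 (SE 0.43; 95% interval -0.49 to 1.41) and the edgeR adjusted p = 0.513. The value rested largely on KO 3: it was 0.10 without KO 3, 0.30 without WT 3 and 0.073 in limma voom with library quality weights. That interval runs from a 0.714-fold to a 2.67-fold level in KO, so a difference of the size seen for Prok1 lay outside it, while smaller changes either way lay inside. KO 2 and KO 3 alone differed from WT by 1.00 (adjusted p = 0.242) and KO 4 to KO 6 by -0.05 (adjusted p = 0.931, edgeR), with the same WT libraries in both. Those comparisons called 0.891% and 42.8% of all tested genes.

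Prokr2 (ENSMUSG00000050558; chromosome 2, 132337733 to 132385447, minus strand) had 15, 18 and 8 counts in WT and 17, 13, 10, 15 and 8 counts in KO 2 to KO 6. That is 0.822, 0.846 and 0.355 CPM in WT and 0.738, 0.618, 0.493, 0.767 and 0.364 CPM in KO. All KO libraries lay within the WT range. The means were 0.675 ± 0.277 CPM (SD, n = 3) and 0.596 ± 0.169 CPM (SD, n = 5). The log2 fold change of Prokr2 was -0.17 (SE 0.41; 95% interval -1.07 to 0.73) and the edgeR adjusted p = 0.825. Its sign turned without WT 2 (0.04). At 8 to 45 counts a library, small differences in either receptor were not detectable.

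Per kb of the longest transcript, Prok1 was the most abundant of the 3 genes in both groups. Its level was 0.740 ± 0.140 CPM per kb in WT and 5.25 ± 0.787 CPM per kb in KO. Prokr1 had 0.192 ± 0.0399 and 0.265 ± 0.145 CPM per kb, and Prokr2 had 0.150 ± 0.0617 and 0.133 ± 0.0377 CPM per kb (SD, n = 3 WT and n = 5 KO). The ranges of the receptors overlapped each other in both groups, and neither reached the lowest Prok1 library of its group. With the 813-base transcript as the length, Prok1 came to 2.79 CPM per kb in WT and 19.8 CPM per kb in KO.

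Of the genes beside Prok1 on the chromosome, those analysed did not pass the test. None of the nearest 6 with counts, 3 on each side, was called, where 7.58% of all tested genes were called in either direction. The nearest analysed on one side, Cym, which lies beyond A630076J17Rik, encodes the stomach protease chymosin. It had 1, 8 and 1 counts in WT and 22, 14, 10, 17 and 11 in KO 2 to KO 6. Every KO library was thus above every WT library at a very low level, as in 10.8% of tested genes at any level. Cym differed by 2.08 on the log2 scale (SE 0.63; edgeR adjusted p = 0.0686). Without WT 2, which held 8 of its WT counts, Cym differed by 3.68 (adjusted p = 0.0527). It passed the threshold in limma voom (2.47, adjusted p = 0.00445) and for KO 4 to KO 6 against WT (1.91, edgeR adjusted p = 0.0363). The nearest analysed on the other side, Lamtor5, a subunit of the Ragulator complex of the lysosome, differed by 0.18 (SE 0.14; edgeR adjusted p = 0.430), and it passed in limma voom (adjusted p = 0.0263) and for KO 4 to KO 6 against WT (0.31, edgeR adjusted p = 0.0296).

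Transcripts for the proteins through which prokineticin receptors signal mostly did not pass the threshold. Of 23 listed coupling genes 21 were tested, 2 were higher and none was lower (4.74% and 2.84% of all genes). The median change was 0.15 on the log2 scale, against 0.0007 over all genes. Itpr1, the calcium release channel of the endoplasmic reticulum, rose from 57.4 ± 2.04 CPM (SD, n = 3) to 77.1 ± 2.98 CPM (SD, n = 5), by 0.43 in log2 (SE 0.07; edgeR adjusted p = 0.0102). Gnai2, an inhibitory G protein alpha subunit, rose from 123 ± 5.25 to 176 ± 15.3 CPM (0.52, SE 0.10; edgeR adjusted p = 0.0170). Every KO library was above every WT library for both genes, as in 10.8% of tested genes. Both calls were lost without WT 1, WT 2 or WT 3 (edgeR adjusted p 0.0541 to 0.0773 for Itpr1 and 0.0841 to 0.0987 for Gnai2). The log2 fold changes were then 0.41 to 0.45 for Itpr1 and 0.49 to 0.55 for Gnai2. Over all genes the count called fell as well, from 1529 to 132, 135 and 199. With KO 2 and KO 3 as the KO group Itpr1 and Gnai2 did not pass either (edgeR adjusted p = 0.0705 and 0.0923). With a correction for GC content the change of Gnai2 was 0.30. Gnaq, the alpha subunit most tied to these receptors, stood at 86.9 ± 4.49 and 96.9 ± 12.6 CPM (0.16, SE 0.11; adjusted p = 0.371). Its relatives Gna14 (0.85, SE 0.26, adjusted p = 0.0720) and Gna11 (0.43, adjusted p = 0.078) and the phospholipase C gene Plcb3 (0.50, adjusted p = 0.056) also missed the threshold. Their KO libraries were all above WT, again as in 10.8% of tested genes. All of these 3 passed for KO 4 to KO 6 against WT, where 42.8% of tested genes were called, and none for KO 2 and KO 3 against WT (edgeR adjusted p 0.307 to 0.506). Mrap2, an accessory protein that binds prokineticin receptors, was at 4.18 ± 0.603 and 4.19 ± 0.366 CPM (0.00, SE 0.16; edgeR adjusted p = 0.989).

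Of 16 listed regulators of prokineticin genes 12 were tested, and 1 was higher and none lower (median -0.08), where 7.58% of all tested genes were called. That count is near the background. Epas1, which encodes the hypoxia-inducible factor HIF-2 alpha, rose from 153 ± 5.80 to 238 ± 34.3 CPM (0.63, SE 0.13; edgeR adjusted p = 0.0243). All KO libraries were above WT, as in 10.8% of tested genes, with KO 3 lowest at 179.6 CPM. The call was lost without any 1 of WT 1, WT 2, WT 3, KO 4, KO 5 or KO 6 (adjusted p 0.0504 to 0.121), and KO 2 and KO 3 as the KO group did not pass (edgeR adjusted p = 0.142). Hif1a, its relative, did not pass the test, and its KO libraries spread widely: KO 2 (895 CPM) and KO 3 (749 CPM) were above the WT range of 682 to 732 CPM, and KO 4 to KO 6 (507 to 589 CPM) were below it. The clock genes Bmal1 (-0.14, SE 0.08, adjusted p = 0.309) and Clock (-0.24, SE 0.15, adjusted p = 0.328), whose proteins act on Prok2 in the brain, did not pass it either. For KO 4 to KO 6 against WT, Clock (-0.45), Bmal1 (-0.18) and Hif1a (-0.33) passed (edgeR adjusted p = 4.3e-05, 0.0487 and 0.0016). That comparison called 42.8% of tested genes. For KO 2 and KO 3 against WT none of these passed (edgeR adjusted p 0.409 to 0.881).

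Among ligands and receptors of blood vessel growth, 1 of 13 tested genes was higher and 1 was lower, with a median of 0.26. Over all tested genes 4.74% were higher and 2.84% lower, so these counts are near the background. Kdr, the main receptor of vascular endothelial growth factor A, rose from 116 ± 2.96 to 219 ± 36.1 CPM (0.92, SE 0.14; edgeR adjusted p = 0.00738). KO 3 was the lowest KO library at 163.4 CPM, above the WT maximum of 117.6 CPM. Vegfa, the ligand, fell from 128 ± 6.27 to 98.4 ± 7.19 CPM (-0.38, SE 0.09, edgeR adjusted p = 0.0317). Its KO libraries were all below WT, as in 10.1% of tested genes. The Kdr call was lost without WT 1 (adjusted p = 0.0557) or WT 2 (0.0597). The Vegfa call was lost without any 1 of WT 1, WT 2, WT 3, KO 4, KO 5 or KO 6 (0.0622 to 0.148). With KO 2 and KO 3 as the KO group Kdr passed (0.70, edgeR adjusted p = 0.0454) and Vegfa did not (0.0976). Endothelial markers summed to 37.1 to 43.8 CPM in WT and 38.9 to 48.6 CPM in KO, with 0 of 5 called. Pericyte markers summed to 88.9 to 100 CPM in WT and 106 to 127 CPM in KO, with 1 of 5 called (Pdgfrb, 0.93, adjusted p = 0.00402). In bulk retina, a change in the number of cells of a type and a change in RNA per cell cannot be told apart.

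Among other neuropeptide genes, none of 11 tested was called higher and 2 were called lower, with a median of -0.24. Over all tested genes 4.74% were called higher and 2.84% lower. Tac1, the substance P precursor, fell from 20.6 ± 0.951 to 11.2 ± 1.66 CPM (-0.88, SE 0.13; edgeR adjusted p = 0.00644). Vip, vasoactive intestinal peptide, fell from 11.4 ± 0.949 to 6.67 ± 0.970 CPM (-0.77, SE 0.15; edgeR adjusted p = 0.0182). Every KO library was below every WT library for both peptides, as in 10.1% of tested genes. The Tac1 call was lost without WT 2 (adjusted p = 0.0511), and the Vip call without any 1 of WT 1, WT 2, WT 3, KO 4 or KO 5 (0.0503 to 0.111). With KO 2 and KO 3 as the KO group neither passed (edgeR adjusted p = 0.0714 for Tac1 and 0.126 for Vip). With a correction for GC content the change of Vip was -0.45.

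**Figure D3:**
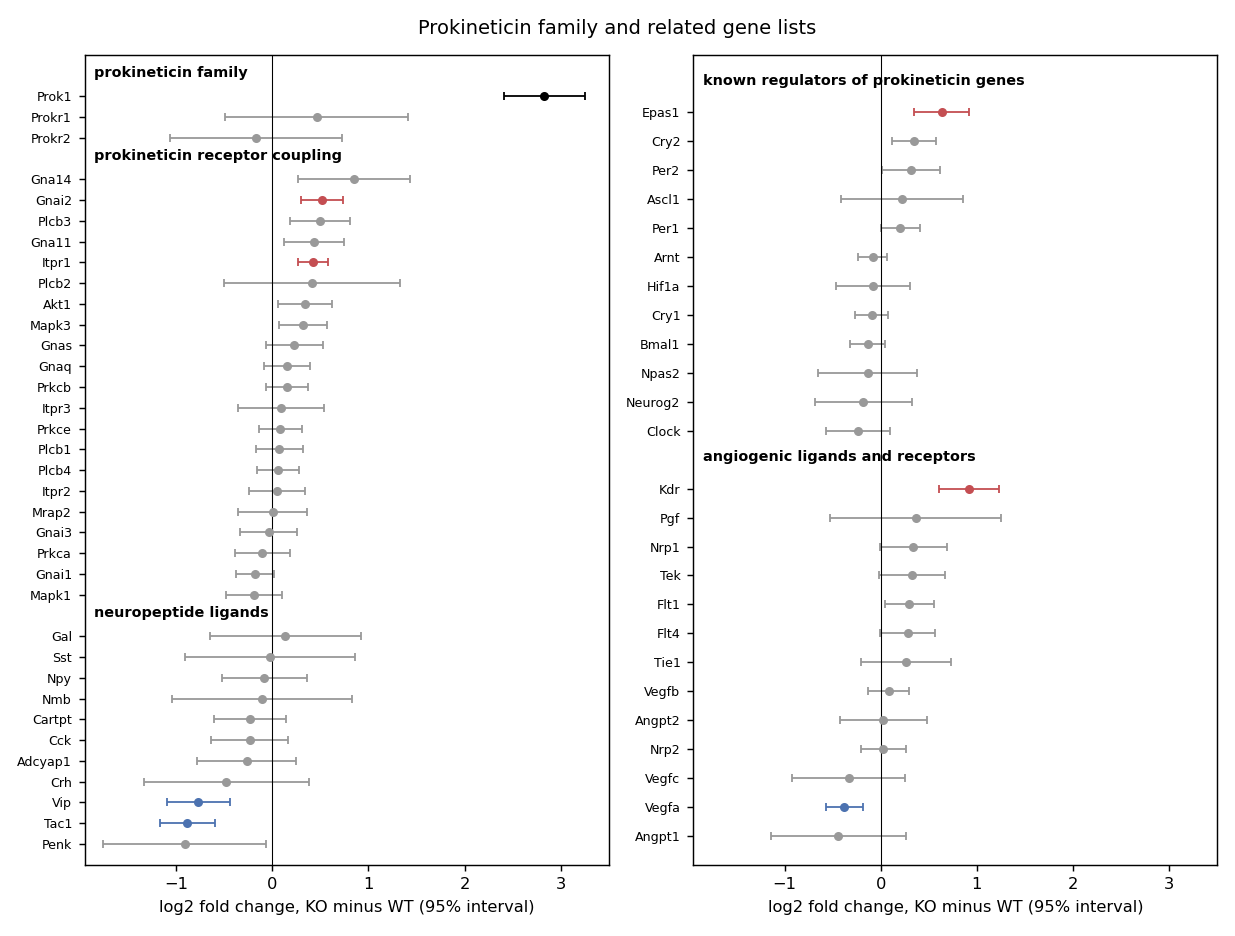
Log2 fold change of KO against WT with its 95% interval for each tested gene of the prokineticin family and of the coupling, regulator, blood vessel and neuropeptide lists, with genes called higher in red, called lower in blue, not called in grey and Prok1, which has no test, in black. Most intervals outside the called genes include 0, and Prok1 is at 2.83.

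Among the genes whose levels followed Prok1 most closely over the 8 libraries were Rdh1 (Pearson's r = 0.994), Lonrf1 (0.991), Lrrc2 (0.988) and Clu (0.987), ranked among 14234 genes on log2 CPM. These values rest mostly on the gap between the groups and describe the same 8 libraries. Rdh1, a retinol dehydrogenase, had 1.35 ± 0.247 CPM in WT and 16.9 ± 1.51 CPM in KO, a difference of 3.65 in log2 (SE 0.17). Lrrc2, a leucine-rich repeat protein, had 36.0 ± 2.56 and 140.2 ± 24.0 CPM (1.96, SE 0.15). Clu, the secreted chaperone clusterin, had 338 ± 20.9 and 737 ± 57.4 CPM (1.12, SE 0.11). In Rdh1, Lonrf1 and Clu the mean of KO 4 to KO 6 was 0.918 to 1.07 times that of KO 2 and KO 3, as Prok1 was at 1.07, and in Lrrc2 it was 1.26 times. Once each group's mean was subtracted, the closest gene (0.985) had only a provisional symbol and a log2 fold change of -0.25 (edgeR adjusted p = 0.628). Lamb2 (0.952), Csf1r (0.951), Myo1e (0.947) and St6galnac5 (0.947) came next. These are the highest values picked from 14234 genes over only 8 libraries, where unrelated genes can also reach high correlations. They were not tested and show no link to Prok1.

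**Figure D4:**
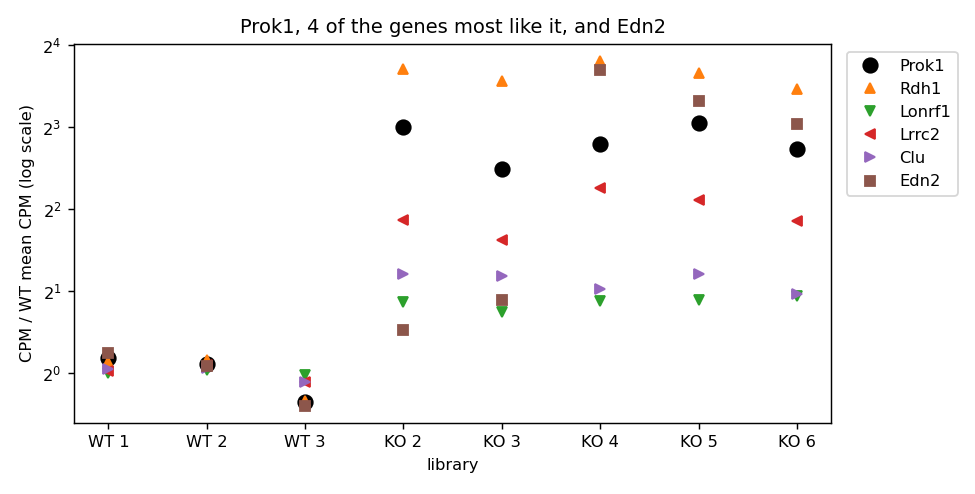
Level of Prok1, 4 of the genes most like it and Edn2 in each library, as CPM divided by the WT mean of the same gene on a log axis. All the genes shown lie above WT in all 5 KO libraries, and Edn2 is at 28.9 to 45.6 CPM in KO 4 to KO 6 against 5.04 CPM in KO 2, 6.51 CPM in KO 3 and at most 4.17 CPM in WT.

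Genes of the retinal stress response, which Muller glia and injured photoreceptors are known to switch on, were mostly higher in KO. Of 11 tested, 10 were higher and none lower, with a median of 1.67, against 4.74% higher, 2.84% lower and a median of 0.0007 over all tested genes; this list was chosen after earlier results of these data were known, so its count is a description. Fgf2, a growth factor for photoreceptor survival, rose from 40.3 ± 2.55 to 170 ± 32.1 CPM (2.07, SE 0.16; edgeR adjusted p = 0.000142). Gfap, the filament protein of reactive glia, rose from 20.1 ± 0.839 to 63.9 ± 11.2 CPM (1.67, SE 0.15; edgeR adjusted p = 0.000382). Fgf2, Gfap, Stat3 and Osmr kept their calls without any 1 library and also passed with KO 2 and KO 3 as the KO group. The other 7 did not pass there: Edn2 differed by 0.72 (edgeR adjusted p = 0.189), against 2.79 over all 5 KO libraries, and Serpina3n in KO 3 (5.14 CPM) lay below WT 2 (5.31 CPM). Edn2, Cebpd, Bcl3 and Serpina3n lost theirs without any 1 of WT 1, WT 2, WT 3, KO 4, KO 5 or KO 6 (0.0552 to 0.166), Lif without any 1 WT library (0.0520 to 0.0883), and Il6st without WT 1 (0.0587) or WT 2 (0.0691).

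The summed levels of 4 of the 12 cell type marker lists, those of cones, pericytes, microglia, and neutrophils and macrophages, did not overlap between the groups that Prok1 separated, and the other sums overlapped. For scale, 20.9% of tested genes had groups that did not overlap, and 4.74% were called higher and 2.84% lower. Cone markers summed to 780 to 985 CPM in WT and 518 to 692 CPM in KO, with 2 of 5 called lower, and microglial markers to 22.2 to 25.1 and 27.2 to 39.8 CPM, with 2 of 5 called higher. Gnat2 among the former, and Tmem119 and Csf1r among the latter, lost their calls without any 1 of WT 1, WT 2, WT 3, KO 4, KO 5 or KO 6. Muller glial markers overlapped, at 3014 to 3209 and 3019 to 4581 CPM, with 1 of 5 called higher (Sox9, lost without any 1 of WT 1, WT 2, WT 3, KO 4 or KO 5). Neutrophil and macrophage markers summed to 5.41 to 5.81 CPM in WT and 2.82 to 5.17 CPM in KO, mostly Lyz2 counts, with 0 of 2 tested genes called (edgeR adjusted p = 0.0694 for Lyz2). Lens markers summed to 18 to 1150 CPM in WT and 0.592 to 40279 CPM in KO, with 0 of 6 called, and Prok1 was lowest of the KO libraries in KO 3, where the lens sum was highest. Their part in the difference of Prok1 was not tested.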

How the data were processed

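Bulk RNA sequencing of 8 retina libraries (3 WT, 5 KO) was analysed. The authors deposited a table of estimated counts per gene as whole numbers, and the submitters' processing notes name Trim Galore, Salmon 1.10.2, DESeq2 and GRCm38 without their roles; strand setting and rounding are not given in the sources used here. No gene had fewer than 16 counts over the libraries.

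Counts were scaled by TMM and filtered with filterByExpr (minimum count 10) in edgeR 4.0.16 under R 4.3.3. The KO and WT libraries, 8 in all, entered a quasi-likelihood test of edgeR (glmQLFit, glmQLFTest) without covariates, with p-values adjusted by Benjamini-Hochberg over all 20167 tested genes and a threshold of 0.05. Levels are TMM-scaled CPM; log2 CPM used a prior count of 2. The fitting steps were tested on simulated data. Each library has its own label, but no label names an animal, so p-values measure the spread between libraries. In KO that spread includes the gap of KO 4 to KO 6 from KO 2 and KO 3. The cause of that gap was not tested. No pair of libraries in a group agreed within sampling noise (lowest chi-square per degree of freedom 5.85).

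The members and lists were chosen with earlier results of these data known. Named genes were the members, Kcnv2, called genes of the lists, the nearest neighbours of Prok1 and the 5 genes most like Prok1 by each of 2 measures; other genes given with values are examples added after their values were seen. A gene that met the rule is not reported here. GENCODE M21 held 22121 of the 26824 identifiers. Alternatives were other scalings, filters and tools (DESeq2 1.42.0, limma 3.58.1 voom), a GC correction, removal of lens genes, subsets of libraries and a replicate block. The floor covers counting error only.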

Additional observations from a re-analysis of the deposited data

Results flagged for a closer look

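Among the 5 KO libraries, 3 of 32 genes searched had 1 library far from the others, where the gap to the nearest library was more than 0.71 of the range; chance alone gives about 1.6. Vegfa was lowest in KO 2, at 85.8 CPM, with a gap of 0.790 of the range. Tac1 was highest in KO 3, at 14.1 CPM, with a gap of 0.833. Kcnv2 was highest in KO 2, at 585 CPM, with a gap of 0.738. Prok1, Prokr1 and Prokr2 had no such gap.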

How the results depend on the processing

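Prok1 kept its direction in all 31 alternatives (log2 fold change 2.68 to 2.95). The receptors did not pass the threshold in any, and DESeq2 gave no adjusted p for Prokr2 or Cym. Prokr1 ran from -0.050 to 0.82 when libraries were left out, negative only without KO 2 and KO 3. Prokr2 turned positive for KO 2 and KO 3 against WT (0.020) and ran from -0.48 to 0.080 with libraries left out. Kcnv2 passed the threshold in limma voom (-0.36) and for KO 4 to KO 6 against WT (-0.38, edgeR adjusted p = 0.000116). It ran from -0.38 to -0.15 with libraries left out.

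The count of called genes, 1529 in edgeR, was 3130 in DESeq2 and 8248 in limma voom. It was 180 for KO 2 and KO 3 against WT, and 118 to 8416 with libraries left out. Without any 1 WT library it was 132 to 199. Without any 1 of KO 4, KO 5 or KO 6 it was 365 to 531. With library size alone, 566 were higher and 787 lower, against 956 and 573 with TMM, and the median of all genes fell to -0.0324 from 0.0007. Of 68 list genes tested 17 were called, where 7.58% of all tested genes were called. The retinal stress list gave 10 of these, and 7 of the other 57 tested were called. The list count was 37 in limma voom, 5 for KO 2 and KO 3 against WT and 4 to 40 with libraries left out. Of the 17, 4 were called without each single library in turn. Of the 21 neighbours tested 1 was called, Tpt1-ps3 beside Prok2. The neighbour count was 3 in DESeq2, 9 in limma voom and 0 with robust estimation. It was 0 for KO 2 and KO 3 against WT and 0 to 11 with libraries left out. Lamtor5 turned to -0.0029 for KO 2 and KO 3 against WT. The cause of these shifts was not tested.

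Numbers 2 and 3 occur in both groups, but no label ties them to shared animals or batches, and the deviations of same-numbered libraries correlated at -0.19. With the number as a block, these 4 libraries gave 52 called genes (14 with no block), 3 list genes (1 with no block), 0 neighbours, Prokr2 at 0.25 (0.18 with no block) and Lamtor5 at -0.029 (-0.037 with no block). The crossed block, added after seeing the data, gave 527 called genes, 8 list genes and 0 neighbours, with Prokr2 at 0.25 and Lamtor5 at -0.029. Depth limits the receptors, at 8 to 45 counts a library.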

Other observations

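Tpt1-ps3, a processed pseudogene near Prok2 whose reads may be shared with near-identical copies, had 0 counts in all 3 WT libraries and in KO 2, 188 counts in KO 3, and 1038, 1396 and 1658 counts in KO 4, KO 5 and KO 6. It was the 1 called gene among the 24 nearest neighbours with counts of the 4 genes (21 tested, edgeR adjusted p = 0.0437). Over all tested genes 7.58% were called, so this count is near the background. The call was lost without any 1 of WT 1, WT 2, WT 3, KO 4, KO 5 or KO 6 (adjusted p 0.0741 to 0.155). Unlike Prok1, Tpt1-ps3 followed the split of KO 4 to KO 6 from the other libraries. That difference was not tested.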
